A study of Mus musculus with 19 samples.

Results

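Meg3, Rian and Mirg of the Dlk1-Dio3 domain, together with Grb10, Peg3, Mest, Cdkn1c and Sgce, were described across liver tumours driven by mutant β-catenin and MYC. These 8 imprinted genes, of 39179 gene identifiers in the count table, were chosen from earlier values of the same tumours, so their levels, spread and likeness are a description. The 1 test run on them compared families of column tags. The labels list 13 tumours, 3 control livers and 3 high AAV control livers. Only tumours 04 to 13 could be matched to a column of the table by number, so all values are from 10 tumours and the control livers were not analysed here. Each tumour came from a male mouse of mixed background that was heterozygous for Ctnnb1tm1Mmt, the conditional allele that yields stabilised β-catenin, and homozygous for Gt(ROSA)26Sortm1(MYC)Djmy, a Cre-activated MYC transgene at Rosa26. All had received AAV8.TBG.PI.Cre.rBG, a virus carrying Cre under the hepatocyte promoter TBG, at 640000000 genome copies per mouse. The animals were induced as young adults and the tumours were collected at end stage. The TBG promoter limits Cre to hepatocytes, while whole-tumour RNA also holds that of vessels, stroma and blood.

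Imprinted genes are expressed from only one parental allele, which is set by DNA methylation inherited from the egg or the sperm. In the Dlk1-Dio3 domain the maternal chromosome gives the long noncoding RNAs Meg3, Rian and Mirg, of which Rian hosts small nucleolar RNAs and microRNAs and Mirg hosts microRNAs. The paternal chromosome gives the protein-coding genes Dlk1, Rtl1 and Dio3. Many imprinted genes act on fetal growth and fall to low levels in the liver after birth. The counts did not separate the parental alleles, and in bulk tumours more cells expressing a gene and more RNA per cell cannot be told apart.

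The 3 noncoding RNAs lie in this order on the plus strand of mouse chromosome 12 (RefSeq, GRCm38.p6), with Meg3 at chr12:109540996-109571729, Rian at chr12:109603945-109661716 and Mirg at chr12:109734981-109749458. Their start regions, each from 250 bases before to 50 bases after the start site, are printed because the 3 RNAs had like patterns among the tumours. Capitals mark CG dinucleotides, the sites of the methylation by which imprints are kept. The windows are at chr12:109540746-109541045 for Meg3, chr12:109603695-109603994 for Rian and chr12:109734731-109735030 for Mirg.
Meg3: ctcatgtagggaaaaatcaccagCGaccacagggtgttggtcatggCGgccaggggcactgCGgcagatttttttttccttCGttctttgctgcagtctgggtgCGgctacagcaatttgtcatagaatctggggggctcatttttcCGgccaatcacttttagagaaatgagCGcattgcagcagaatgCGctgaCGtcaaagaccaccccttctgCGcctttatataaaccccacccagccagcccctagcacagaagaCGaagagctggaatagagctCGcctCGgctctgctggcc
Rian: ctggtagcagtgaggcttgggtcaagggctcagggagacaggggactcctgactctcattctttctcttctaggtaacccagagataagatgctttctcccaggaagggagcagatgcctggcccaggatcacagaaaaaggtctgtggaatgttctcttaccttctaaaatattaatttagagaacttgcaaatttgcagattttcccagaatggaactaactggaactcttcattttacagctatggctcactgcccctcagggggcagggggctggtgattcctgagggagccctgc
Mirg: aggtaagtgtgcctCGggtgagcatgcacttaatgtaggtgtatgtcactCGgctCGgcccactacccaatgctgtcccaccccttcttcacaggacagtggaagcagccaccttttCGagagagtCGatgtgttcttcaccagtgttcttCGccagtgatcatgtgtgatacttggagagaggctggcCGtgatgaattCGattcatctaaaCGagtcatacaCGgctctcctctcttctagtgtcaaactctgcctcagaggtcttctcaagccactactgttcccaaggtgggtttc
The Meg3 window held 13 CG dinucleotides and the Mirg window 10, while the Rian window had 0. The median over 32851 RefSeq start regions of the same length was 7, and 5.43% of them held 0. RefSeq gave start regions for 6 of the 8 genes, 10 windows in all. The remaining windows ranged from 1 CG at a second, internal Meg3 start to 45 at the upstream Grb10 start, more than in 98.1% of all start regions. The cAMP response element TGACGTCA, a palindrome, was present in the Meg3 window, 57 bases before the start site, and in the Peg3 window, against 1.79% of all start regions. Neither the E-box CACGTG, which MYC and other factors bind, nor ATCAAAG, a sequence bound by TCF proteins and searched on both strands, was found in any of the 10 windows. These letters were present in 7.15% and 3.73% of all start regions, respectively.

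Between the start of Meg3 and the end of Mirg, RefSeq places 105 different mature microRNAs from 57 hairpin genes on the same strand. Of their positions, 3 lie within the span of Meg3, 6 within Rian and 19 within Mirg, and 78 lie between the spans. A few are printed with the seed, bases 2 to 8, in capitals. Those within a span are shown because such products are what the host RNAs are known for. The others, miR-1193-3p, miR-494-5p, miR-379-3p and miR-411-3p, lie between the spans and are shown because seeds recur across the domain.
miR-770-3p: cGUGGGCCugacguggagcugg
miR-341-5p: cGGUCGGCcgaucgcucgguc
miR-370-5p: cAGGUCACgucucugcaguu
miR-370-3p: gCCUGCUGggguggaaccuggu
miR-1193-3p: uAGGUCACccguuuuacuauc
miR-453: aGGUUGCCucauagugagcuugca
miR-496a-5p: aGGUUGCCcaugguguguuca
miR-494-5p: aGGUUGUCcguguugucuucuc
miR-410-5p: aGGUUGUCugugaugaguucg
miR-410-3p: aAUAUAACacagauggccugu
miR-379-3p: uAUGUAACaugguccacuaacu
miR-411-3p: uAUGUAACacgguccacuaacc
The seed of miR-370-5p, within Rian, recurred in miR-1193-3p. The pair miR-453 and miR-496a-5p, both within Mirg, shared one seed. miR-410-5p, within Mirg, shared its seed with miR-494-5p, and miR-379-3p with miR-411-3p. In all, 8 of the 97 seeds were carried by more than 1 mature microRNA. The libraries held polyadenylated RNA and did not measure mature microRNAs. Of 70 microRNA and small nucleolar RNA genes in the table from Dlk1 to Dio3, 6 had any count, with 11 counts in all.

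Meg3 ranged from almost no reads to a well-measured transcript. In CPM, counts scaled to a total of 1000000 per tumour, its level was 1.05 in tumour 04, 0.0638 in 05, 6.07 in 06, 1.29 in 07, 3.09 in 08, 1.40 in 09, 3.58 in 10, 57.9 in 11, 26.6 in 12 and 3.53 in 13. Tumours 11 and 12 stood highest, and the next, tumour 06, was at 6.07. The counts behind these values ran from 1 in tumour 05 to 918 in tumour 11, a ratio of 907 whose 95% exact counting interval, 162 to 35875, is wide because the lower value was a single read. Intervals of this kind cover counting error only. Tumours 08, 10 and 13 could not be ordered, since their counting intervals overlapped, from 2.38 to 3.95 CPM in tumour 08, 2.82 to 4.49 in tumour 10 and 2.96 to 4.17 in tumour 13. The same held for tumours 04, 07 and 09.

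Rian, the host of the box C/D small nucleolar RNAs and of several microRNAs, followed Meg3 tumour by tumour. It had 4 counts in tumour 04, 0 in 05, 69 in 06, 6 in 07, 37 in 08, 9 in 09, 53 in 10, 249 in 11, 537 in 12 and 72 in 13. At 15.7 CPM, tumour 11 could not be told from tumour 12 at 17.7 CPM, since their counting intervals overlapped. The third highest was tumour 06 at 4.19 CPM. The highest value was at least 92.2-fold higher than the limit that a count of 0 allows in tumour 05, taken as 3 counts or 0.191 CPM.

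Mirg, the most distal of the 3 and a host of microRNAs, was the most sparsely counted. It had 35 counts in tumour 11 and 40 in tumour 12, or 2.21 and 1.31 CPM. Tumour 06 followed with 9 counts, tumour 13 had 3, tumours 08 and 10 had 2 each, and tumours 04, 05, 07 and 09 had 0. The highest level was at least 7.97-fold above the 3-count limit of tumour 07, the tumour at 0 with the fewest reads. All 3 RNAs were thus lowest in tumour 05 and highest in tumours 11 and 12, with Mirg tied at 0 in tumour 05 and 3 others.

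**Figure D1:**
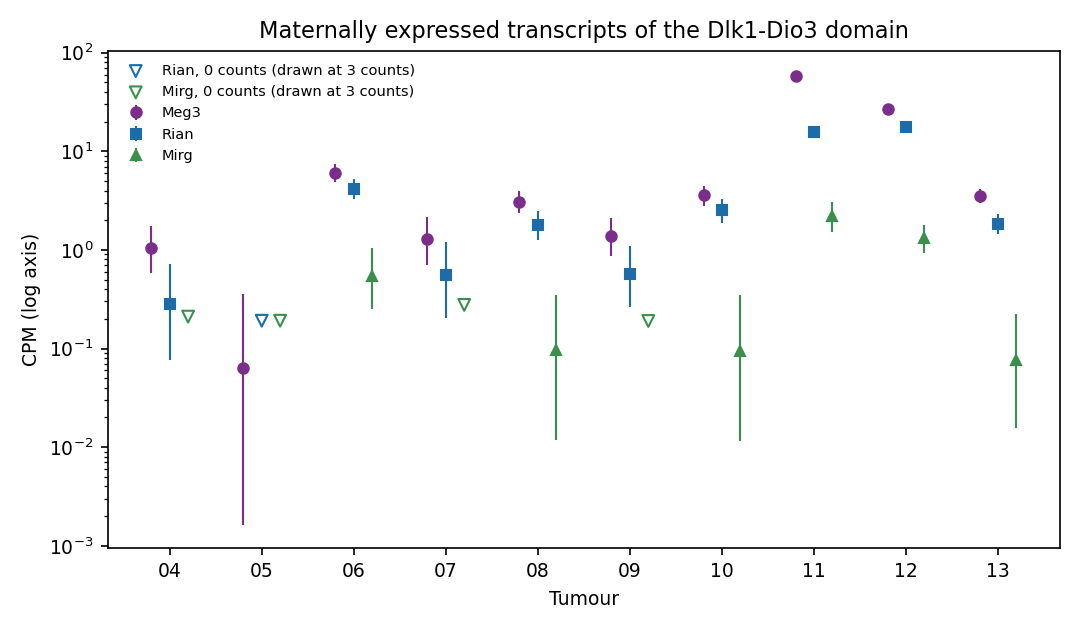
Level of Meg3, Rian and Mirg in each of 10 tumours in CPM on a log axis, with bars giving 95% exact counting intervals. Open triangles mark tumours at 0 counts, drawn at the level of 3 counts. Tumours 11 and 12 are highest for all 3 RNAs, and Meg3 in tumour 05 rests on 1 read.

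On the log2 CPM scale with a prior count of 2, Meg3 and Rian had a Pearson r of 0.98 and a Spearman rho of 0.99 over the 10 tumours. For Meg3 and Mirg the r was 0.90 and the rho 0.93, and for Rian and Mirg 0.90 and 0.92. These are descriptions over tumours that share a domain, a library each and, for some, a column tag, and no p is given. Taken as deviations from the mean of each column tag family (explained with the tag comparison), the r of Meg3 and Rian was 0.97. Leaving out tumours 11 and 12, a choice made after seeing the data, gave 0.98 for Meg3 with Rian, 0.70 for Meg3 with Mirg and 0.79 for Rian with Mirg. Among 15415 other genes, Rian was the closest to Meg3 and Meg3 the closest to Rian. Mirg ranked 15th for each of them, in a gene with 4 tumours at 0.

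Genes outside the domain with the pattern most like it were named by their r over the same 10 tumours, among 15408 genes. For Meg3 they were Apof, which encodes an apolipoprotein made by hepatocytes, with an r of 0.95, Cyp2d11 with 0.95 and the zinc finger gene Zfp612 with 0.94. For Rian they were Yif1a (0.96), Zfp612 (0.96) and C4bp, a complement inhibitor secreted by the liver (0.93). For Mirg they were the class I histocompatibility gene H2-K1 (0.93), Dexi (0.92) and the predicted gene Gm27000 (0.92). With so many genes searched over 10 tumours, such values are a ranking only. The Spearman rho of Apof with Meg3 was 0.70, while that of Yif1a with Rian was 0.96, although Yif1a ranged only from 47.8 to 70.4 CPM.

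The proportions of the 3 RNAs were not the same in both high tumours. Rian made up 20.7% of the summed Meg3, Rian and Mirg counts in tumour 11 (249 of 1202, 95% exact Clopper-Pearson interval 18.5% to 23.1%). In tumour 12 it made up 38.7% (537 of 1386, interval 36.2% to 41.4%). The 2 intervals did not overlap. Tumours 06, 08, 10 and 13 had shares of 38.8%, 35.9%, 40.8% and 33.8%, each with an interval wholly above that of tumour 11. Tumours 04, 07 and 09, with 19 to 31 counts in sum, had shares of 21.1%, 30% and 29.0%, and their intervals overlapped that of tumour 11. Mirg was 2.91% of the sum in tumour 11 and 2.89% in tumour 12. Reads are not independent molecules, and no replicate library of a tumour was available to give the spread of such a share.

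**Figure D2:**
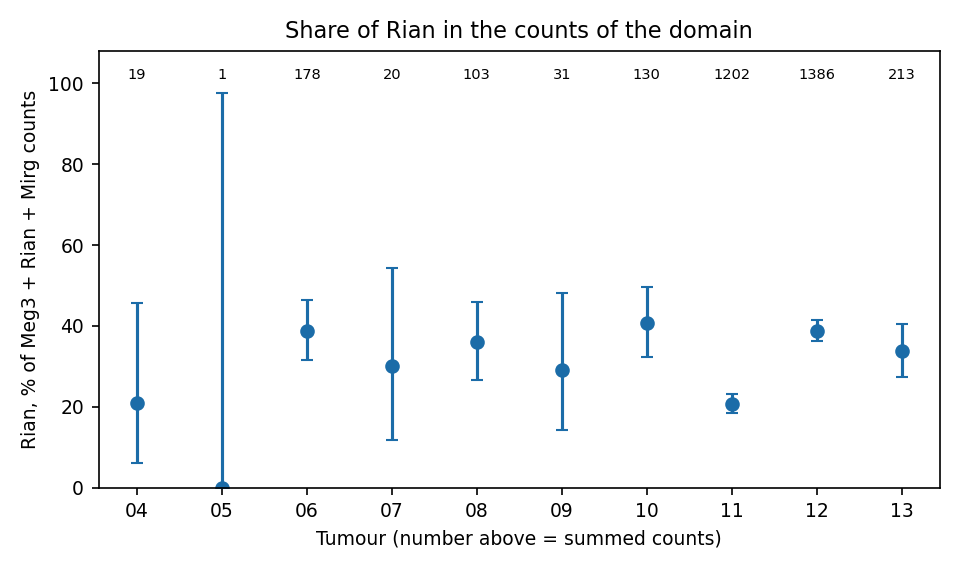
Share of Rian in the summed counts of Meg3, Rian and Mirg in each tumour, in percent, with bars giving 95% exact binomial intervals and the summed counts printed above. Tumour 11 is at 20.7% of 1202 counts and tumour 12 at 38.7% of 1386, and tumour 05 rests on 1 count.

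The paternally expressed genes of the domain had few reads in all tumours, those with high Meg3 included. Dlk1, a membrane-bound ligand related to the Notch ligands, had 0 to 7 counts in a tumour, and Rtl1, a retrotransposon-derived gene antisense to the region between Meg3 and Rian, had 0 to 4, the 4 being in tumour 11. Neither passed the filter on low counts. Dio3, the deiodinase that inactivates thyroid hormone, had 1 to 17 counts, with a median of 0.285 CPM and the highest level, 1.12 CPM, in tumour 04. Its level was 0.378 CPM in tumour 11 and 0.0986 CPM in tumour 12. The r of Dio3 with Meg3 was -0.44. Rtl1 overlaps both noncoding genes in RefSeq, and whether the counting used strand is not stated in the sources used here. The part of this overlap in the counts of Meg3 and Rian was not tested.

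Genes on either side of the domain varied about as much as genes at large. Of 11 flanking genes of chromosome 12, 10 passed the filter on low counts and 1 of them, Eml1, had an SD over 1 log2 unit (1.02). That is near the 11.5% of all genes tested, and the median SD of the 10 was 0.34 against 0.39. Ppp2r5c, a phosphatase subunit just beyond Dio3, ranged from 52.1 to 74.1 CPM with its lowest level in tumour 11. Over the genes of chromosome 12 outside the domain, the median deviation of a tumour from the other 9 was -0.03 log2 units in tumour 11, 0.00 in tumour 12 and -0.11 in tumour 05.

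Grb10, an adaptor that restrains signalling from the insulin and IGF1 receptors, lies at chr11:11930499-12037428. It ranged from 1.94 CPM in tumour 12 through a median of 7.38 to 34.4 CPM in tumour 09, a ratio of 17.7. The second highest was tumour 07 at 16.9 CPM. Tumours 11 and 12, the highest for Meg3, were the lowest for Grb10, at 2.96 and 1.94 CPM, with overlapping counting intervals. The r of Grb10 with Meg3 was -0.74 and the rho -0.70, and the r was -0.78 once the 2 tumours with the most extreme Meg3 levels were left out. Of its neighbours, Ddc, a decarboxylase gene known to be imprinted in the heart, had an SD of 0.33 log2 units, and Cobl one of 1.01.

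Cdkn1c encodes p57, an inhibitor of cyclin-dependent kinases, and lies at chr7:143458339-143461059. Its level was lowest in tumour 07 at 1.48 CPM, had a median of 3.24 and reached 8.74 CPM in tumour 10, 8.06 in tumour 09 and 6.95 in tumour 08. The counting intervals of tumours 09 and 10 overlapped. Over the 10 tumours its r with each of the other 7 genes lay between -0.46 (Sgce) and 0.14 (Mest). With Grb10 it was 0.02 over all tumours but -0.62 once the 2 tumours most extreme for Grb10 were left out, and with Sgce it was -0.59 once those most extreme for Cdkn1c were left out. Its r with its neighbour Kcnq1, a potassium channel gene of the same imprinted domain, was 0.06. Phlda2, another maternally expressed growth restrainer of that domain, ranged from 0.164 to 5.12 CPM, with an SD of 1.16, and its r with Cdkn1c was 0.16.

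Peg3, a paternally expressed zinc finger gene at chr7:6703892-6730462, was low throughout. It ranged from 0.281 CPM in tumour 04 through a median of 1.07 to 3.93 CPM in tumour 09, from 4 to 68 counts. Tumour 08 was next at 3.28 CPM, and its interval overlapped that of tumour 09. Usp29, which starts beside Peg3 on the opposite strand, had 0 counts in all 10 tumours, and Zim1 had at most 1.

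Mest, paternally expressed and named for its expression in mesoderm, lies at chr6:30733506-30748466. It was lowest in tumour 12 at 1.08 CPM, had a median of 2.88, and was highest in tumours 09 and 07, at 11.1 and 10.2 CPM with overlapping intervals. Copg2, the overlapping neighbour that encodes a coat protein subunit, ranged from 27.6 to 41.8 CPM and had an r of 0.20 with Mest. Kcnq1, Igf1r (the IGF1 receptor) and Ndn (a paternally expressed gene of the Prader-Willi region) followed Mest more closely, with r of 0.92, 0.81 and 0.93. Ndn was at 0.0767 to 0.825 CPM, so its values rest on few reads.

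Sgce, the paternally expressed ε-sarcoglycan gene, lies at chr6:4674350-4747204 beside Peg10 at chr6:4747306-4760517, a paternally expressed gene derived from a retrotransposon. Sgce ranged from 0.764 CPM in tumour 10 through a median of 1.99 to 8.13 CPM in tumour 13, and the second highest was tumour 09 at 4.25 CPM. Peg10 ranged from 0.427 to 4.70 CPM and was also highest in tumour 13. The r of the pair was 0.89 and the rho 0.87, and the r was 0.78 once the 2 tumours with the most extreme Sgce levels were left out. Other genes of the same stretch did not peak in tumour 13. Casd1, on the other side of Sgce, was highest in tumour 08, and Pon1, Pon2 and Pon3 (paraoxonases) were highest in tumours 07 and 08. The median deviation of chromosome 6 in tumour 13 was -0.06 log2 units.

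**Figure D3:**
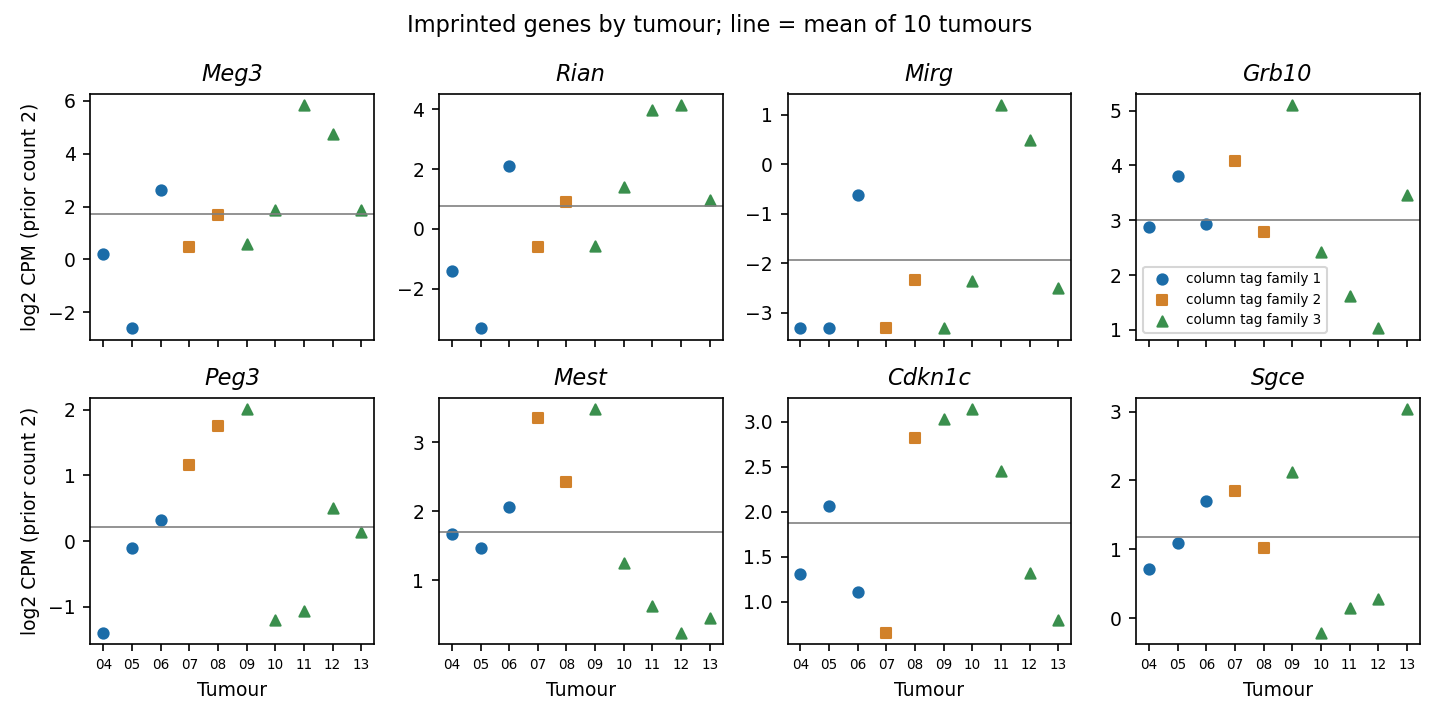
Level of each of the 8 imprinted genes in 10 tumours, in log2 CPM with a prior count of 2. Colours and shapes give the column tag family and the grey line the mean. Meg3, Rian and Mirg peak in tumours 11 and 12, Grb10, Peg3 and Mest in tumour 09, and Sgce in tumour 13.

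The spread of these genes among tumours exceeded that of most genes. The SD of log2 CPM was 2.38 for Meg3, 2.34 for Rian, 1.70 for Mirg, 1.20 for Peg3, 1.19 for Grb10 and 1.14 for Mest. Sgce (1.01) lay just above 1 log2 unit and Cdkn1c (0.95) just below it. Thus 7 of the 8 had an SD over 1, against 11.5% of the 15416 genes tested. The median SD was 1.19 over the 8 genes and 0.39 over all genes tested. Since the genes were chosen on values of these tumours, nothing is read from this contrast. Meg3, Rian, Mirg and Peg3 passed the filter only because it was applied by tag family: of the 8 genes, 4 passed when the 10 tumours were taken as 1 group. The biological coefficient of variation fitted by edgeR was 1.30 for Meg3, 1.30 for Rian and 1.61 for Mirg, between 0.604 (Cdkn1c) and 0.767 (Peg3) for the other 5, and 0.304 for the median gene.

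**Figure D4:**
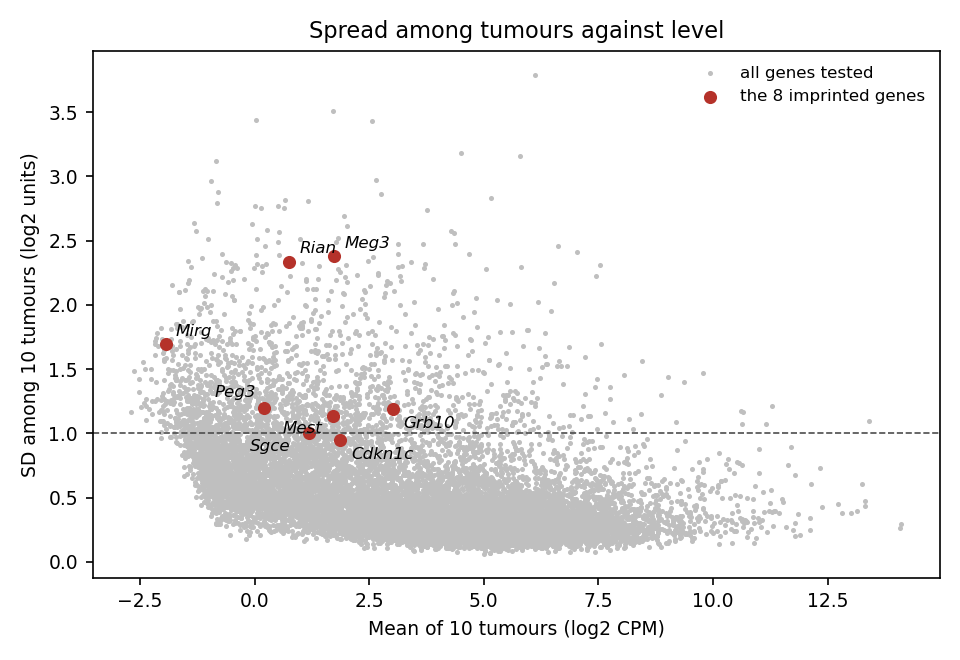
SD among 10 tumours against mean level (log2 CPM) of the 15416 genes tested, in grey, with the 8 imprinted genes in red and a dashed line at an SD of 1. Meg3 and Rian have SDs of 2.38 and 2.34, and Cdkn1c is the only one of the 8 below the line.

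Other imprinted genes, as a list, were close to all genes in their spread. Of 28 listed genes from other domains, 25 were matched and 16 passed the filter, and 1 of these, Sfmbt2, had an SD over 1 log2 unit. The median SD of the 16 was 0.35, against 0.39 over all genes tested. Sfmbt2, a paternally expressed Polycomb-related gene, ranged from 0.230 CPM in tumour 12 to 16.1 CPM in tumour 05. Igf2r, the receptor that clears IGF2, ranged from 115 to 363 CPM, and Slc38a4, an amino acid transporter, from 497 to 1274 CPM. Impact, Blcap and Commd1 had SDs of 0.31, 0.19 and 0.16. H19 and Igf2, the imprinted pair next to the Cdkn1c domain, were the most variable, with SDs of 3.79 and 3.51, and were both highest in tumour 09, at 7120 and 1521 CPM.

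The genes that keep imprints in place also had a spread near that of all genes. Of 13 such genes, 10 passed the filter and 0 had an SD over 1, against 11.5% of all genes tested. Their median SD was 0.32, against 0.39. Dnmt1, the maintenance methyltransferase, ranged from 23.7 to 40.7 CPM, and Trim28, the corepressor recruited by imprint-protecting zinc finger proteins, from 152 to 242 CPM. Zfp57, one of those proteins, was low, from 0.164 CPM in tumour 12 to 1.91 CPM in tumour 05. Among 12 partners and targets of Grb10 and p57, Igf1r, Ccnd2 and Ccne1 had SDs over 1, and the median SD was 0.68. Insr, the insulin receptor, ranged only from 72.5 to 118 CPM. Ccnd2 (cyclin D2) was highest in tumour 09, at 51.6 CPM, and Ccne1 (cyclin E1) in tumour 12, at 13.1 CPM. Of 5 matched nuclear long noncoding RNAs, Neat1 and Malat1 were highest in tumour 11, at 693 and 170 CPM, as was Meg3, but their SDs were 0.71 and 0.79.

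Markers of the cell types in a tumour moved with some of the 8 genes. The 6 hepatocyte markers summed to 21526 to 34424 CPM, most of it from Alb, at 13016 CPM or more in each tumour. Serpina1c and Cps1 of the same list had SDs of 1.97 and 2.04, with their lowest levels, 0.893 and 4.53 CPM, in tumour 05. The summed level of 10 stellate cell and fibroblast markers was lowest in tumour 12, at 248 CPM, and highest in tumour 09, at 1880 CPM, and that of 8 endothelial markers from 43.5 CPM in tumour 12 to 359 CPM in tumour 07. Mest followed both lists. Its r with the mean log2 CPM was 0.91 for the stellate and fibroblast list and 0.91 for the endothelial list, and it was positive for 10 of 10 and 8 of 8 genes. Leaving out the 2 tumours most extreme for each list gave 0.76 and 0.87. Red cell genes, 101 to 6181 CPM in sum over 5 genes, gave an r of 0.85 with Mest, or 0.61 on leaving out the 2 tumours most extreme for them. For the cholangiocyte list the r with Mest was 0.70, positive for 5 of 5 genes, or 0.46 with the same kind of omission. Grb10 had r of 0.78 and 0.74 with the stellate and endothelial lists, or 0.48 and 0.67 with the 2 tumours most extreme for each list left out. For Peg3 the values were 0.51 and 0.49, or 0.01 and 0.31. The part of these cells in the levels of Mest, Grb10 and Peg3 was not tested.

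Meg3, Rian and Mirg went the other way. Their r with the stellate and fibroblast list was -0.55, -0.59 and -0.65, and with the endothelial list -0.58, -0.60 and -0.61. With the 2 most extreme tumours left out they were -0.60, -0.62 and -0.59, and -0.45, -0.50 and -0.42. The stellate and fibroblast sum was 281 CPM in tumour 11 and 248 CPM in tumour 12, the lowest of the 10 tumours. The endothelial sum was 44.7 and 43.5 CPM, also the lowest. Tumours 13 and 10 came next, at 317 and 381 CPM for the first list and 47.2 and 51.6 CPM for the second. Their Meg3 level was only 3.53 and 3.58 CPM. The r of Meg3 with the hepatocyte list was 0.68, but 0.16 when the 2 tumours most extreme for that list were left out. Macrophage markers ranged from 113 to 344 CPM, cholangiocyte markers from 13.6 to 145 CPM and lymphocyte markers from 0.702 to 5.55 CPM. Their r with Meg3 was 0.54, -0.17 and 0.51, with rho of 0.24, -0.19 and 0.26. Leaving out the 2 tumours most extreme for each list gave r of 0.28, 0.21 and 0.38. Lymphocyte markers were highest in tumour 11, and their part in the Meg3 level was not tested. In tumour 05, which had the least Meg3, Clec4f and Vsig4, markers of the resident macrophages of the liver, were at 0.574 and 0.319 CPM, against at least 15.5 and 3.17 CPM in every other tumour. Cd68 of the same list was instead highest in tumour 05, at 68.3 CPM, and the list sum there, 121 CPM, was above the 113 CPM of tumour 10. The part of these cells was not tested either. For Cdkn1c the r was -0.06 with the stellate and -0.20 with the endothelial list, and for Sgce 0.41 and 0.43. With the same omission these were -0.20 and 0.19, and 0.12 and 0.25. With the cholangiocyte list, Cdkn1c had an r of 0.57 and a rho of 0.36, with 5 of 5 genes positive. The r was 0.37 with the 2 tumours most extreme for that list left out. The part of these cells in the Cdkn1c level was not tested.

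**Figure D5:**
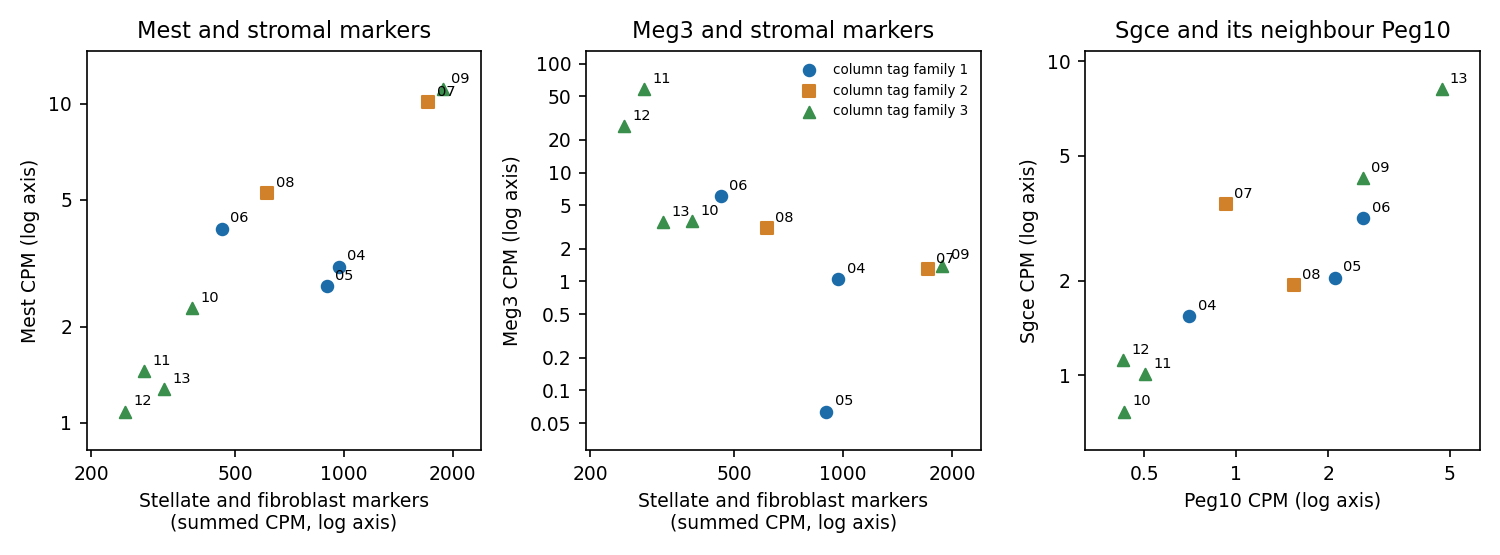
Mest (left) and Meg3 (middle) in CPM against the summed CPM of 10 stellate cell and fibroblast markers, and Sgce against Peg10 (right), all on log axes, 1 point per tumour numbered 04 to 13, with colours and shapes for the column tag family. Mest rises with the markers from tumour 12 to tumour 09, and Sgce and Peg10 are both highest in tumour 13. Meg3 is highest in tumours 11 and 12, which have the lowest marker sums. It is far lower in tumours 13 and 10, which have the next lowest.

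Depth and RNA quality were set beside the same values. The total count per tumour ran from 11687034 to 36964427, with a median of 16664597, and 3 counts corresponded to 0.0767 to 0.277 CPM. Tumour 05, with the least Meg3, had 16027589 counts, close to the median and to the 16111538 of tumour 11. With log2 total count, the r was 0.38 and the rho 0.56 for Meg3, 0.47 and 0.61 for Rian and 0.33 and 0.62 for Mirg. They were -0.45 and -0.59 for Grb10 and -0.72 and -0.70 for Mest. The share of reads without a unique alignment, 45.4% to 57.9%, had an r of 0.52 and a rho of 0.75 with Grb10, 0.60 and 0.58 with Mest, 0.47 and 0.66 with Sgce and -0.60 and -0.61 with Cdkn1c. RNAs that lack a poly(A) tail summed to 64.9 CPM in tumour 05, 50.6 in 06 and 88.3 in 07, and to 2.14 to 7.72 CPM in the other 7 tumours. Of these 3 tumours, Meg3 was 0.0638 CPM in 05, 6.07 in 06 and 1.29 in 07. The mean log2 CPM of the 9 matched RNAs of this kind had an r of -0.48 and a rho of -0.50 with Meg3, and the r was -0.03 with the 2 tumours most extreme for the list left out. For Rian the r was -0.46 and the rho -0.56, and the r was 0.01 with the same omission. The r was positive for 9 of 9 of these RNAs with Grb10 and with Mest, and for 0 of 9 with Cdkn1c. Only 3 of the 9 passed the filter on low counts. The r with the list was 0.41 for Grb10, 0.41 for Mest and -0.45 for Cdkn1c. With the same omission it was 0.14, 0.24 and -0.36. The part of depth and RNA quality in these values was not tested.

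The table's headers give each tumour a tag, and the first part of the tag splits the tumours into 3 families. Tumours 04 to 06 form the first, 07 and 08 the second and 09 to 13 the third. The meaning of a tag is not given in the labels. It could mark a mouse or a batch, which cannot be told apart here. Tumours 11, 12 and 13 carry the same whole tag, and Meg3 was 57.9, 26.6 and 3.53 CPM in them. The mean log2 CPM of Meg3 was 0.07 in the first family, 1.08 in the second and 2.98 in the third. The first mean leans on tumour 05, at -2.61 with 1 count, beside 0.21 in tumour 04 and 2.62 in tumour 06. In edgeR's quasi-likelihood F test over all 15416 genes with Benjamini-Hochberg adjustment, 0 of the 8 genes differed between families, and 0 had an unadjusted p under 0.05. These genes were chosen on values of the same tumours, and Meg3, Rian, Mirg and Peg3 entered the test only through a filter applied by family. Mirg entered through tumours 11 and 12 of the third family, so nothing is read from its result. The smallest adjusted p was 0.42, for Meg3, with an unadjusted p of 0.073. Over all genes, 5 were called, or 0.0324%, and 13.2% had an unadjusted p under 0.05. DESeq2's likelihood ratio test called 601 genes and none of the 7 members to which it gave an adjusted p. Without tumour 09, where Mest was highest, edgeR's F test called 175 of 15261 genes, among them Mest, with an adjusted p of 0.049. Nothing is read from this call of Mest.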

How the data were processed

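Polyadenylated RNA of whole liver tumours was sequenced in stranded mRNA libraries. The authors deposited 1 table of raw counts per gene, not normalised. The submitters' processing notes name TopHat2, HTSeq and GRCm38. The study's methods name STAR and featureCounts, and whether counting used strand is not given in the sources used here. Of 19 columns, 10 matched tumours 04 to 13 by number, and 9 columns matched no single sample and were not used. The 5 summary lines were left out of the totals. Reads without a unique alignment amounted to 45.4% to 57.9% of all tallied reads or alignments.

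Symbols were taken from GENCODE M39 (34199 of 39179 identifiers) and positions and sequences from RefSeq GRCm38.p6. Counts were scaled with TMM in edgeR 4.0.16 (factors 0.927 to 1.11) and given as CPM or, with a prior count of 2, as log2 CPM. Low genes were filtered with filterByExpr by column tag family, which kept 15416. The family comparison used edgeR's quasi-likelihood F test, the alternative DESeq2 1.42.0, adjusted p under 0.05. Scripts were tested on simulated counts. All 10 tumours are 1 group in the labels, and nothing says which came from separate mice, so p-values measure the spread between these tumours. The genes described, the gene lists and the motifs were chosen with earlier results of these data known. Beyond the 8 genes and the lists, for each of Meg3, Rian and Mirg the 3 genes with the highest Pearson r were named.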

Additional observations from a re-analysis of the deposited data

Results flagged for a closer look

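Dixon's ratio, the gap from the highest or lowest tumour to the nearest one divided by the whole range in log2 CPM, was at most 0.332 for the 8 imprinted genes (Meg3, tumour 05). This is given as a description, since the genes were chosen on these values, and tumours 11 and 12 stand high together for Meg3, Rian and Mirg, which keeps the ratio small at the high end. Of the 154 genes of the lists that were examined, 14 exceeded the 95% critical value for 10 tumours, where chance flags about 1 in 20 (the value after each gene is its ratio).

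Tumour 05, the lowest for Meg3, was far below the others for the Kupffer cell genes Clec4f (0.701), Vsig4 (0.634) and Cd5l (0.575), for the sinusoidal endothelial gene Clec4g (0.478) and for Cep41 (0.539), a neighbour of Mest. Not all genes of those lists were low there: Cd68 was highest in tumour 05, and the endothelial sum, 185 CPM, was above the median of 128 CPM. Tumour 05 was far above the others for Cdkn1b (0.4997), which encodes p27, and Tbx3 (0.518). Tumour 09, the highest for Grb10, Peg3 and Mest, was far above the others for Igf2 (0.606), Impact (0.479) and Ccnd2 (0.471). Tumour 12, the lowest for Grb10 and Mest, was far below them for Phlda2 (0.467) and Krt19 (0.494), a cholangiocyte marker. Alas2 (0.520) stood out in tumour 07 and Cdk1 (0.498) in tumour 08.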

How the results depend on the processing

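Alternative settings were DESeq2 size factors, total counts, a prior count of 0.5, no filter and thinning to 11687034 counts. The r of Meg3, Rian and Mirg with each other was 0.87 or more under each of them. Of the SDs of the 8 genes, those of Mirg and Rian moved most, with a prior count of 0.5. They were 2.48 and 2.81 there, against 1.70 and 2.34. With DESeq2 size factors 6 of the 8 genes had an SD over 1, and after thinning 8. Leaving out each tumour in turn, the number ran from 6 (without tumour 09, 10, 11 or 13) to 8 (without tumour 05). The median SD of the 8 genes ran from 1.04 to 1.27, and the number of all genes with an SD over 1 from 1617 to 2160. The r ran from 0.97 to 0.99 for Meg3 with Rian, from 0.84 to 0.98 for Meg3 with Mirg and from 0.87 to 0.96 for Rian with Mirg. Without tumours 11 and 12, chosen after seeing the data, it was 0.705 for Meg3 with Mirg and 0.786 for Rian with Mirg. The count of all genes that differed between column tag families, 5, became 601 with DESeq2, 23 with no filter and 79 with the whole tag, and 0 of the 8 genes was called in each. Leaving out 1 tumour, it ran from 0 (without tumours 05, 06, 11 or 13) through 2 (without 10 or 12), 8 (without 08) and 81 (without 04) to 175 (without 09), and from 0 to 1 of the 8 genes was called, Mest without tumour 09. Mirg did not pass the filter without tumour 11 or 12, so those fits tested 7 of the 8 genes. In edgeR's F test the smallest adjusted p of the 8 genes ran from 0.0493 to 0.819, and nothing is read from the call of Mest. The cause of these moves was not tested. No paired analysis was possible because the labels put all 10 tumours in 1 group. Mirg had 0 to 3 counts in 7 tumours, so differences among those were not detectable at this depth.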
